A study of Homo sapiens with 6 samples.

Results

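The genes that make, receive and block the Wnt signal outside the cell form a set of 40 in these data. They are the rows of the deposited count table whose gene names are a WNT, FZD, SFRP or DKK with its number, together with LRP5, LRP6 and WIF1. The table names 57341 genes in all, and the rule uses names and no measured value. By role the set holds 19 Wnt ligands, 10 Frizzled receptors, the 2 co-receptors LRP5 and LRP6, 5 inhibitors that bind the ligand (4 SFRP genes and WIF1) and 4 Dickkopf genes.

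RNA was sequenced from H295R, a cell line derived from a human adrenocortical carcinoma, and from H295R-PM-Ptc+, a derivative made by sorting H295R cells that carried the Hedgehog receptor Ptch1 at the plasma membrane and growing them on, with 3 libraries labelled for each. The sorted cells went through 1 selection, and nothing in the labels says that the 3 libraries of a group came from separate cultures, so p-values measure only the spread between these libraries. No drug or other treatment is named for either group, and both were grown in the same medium. Each library held between 23264403 and 25813247 counts. PTCH1 itself was lower in libraries labelled H295R-PM-Ptc+ (12.2 ± 2.19 CPM) than in those named H295R (21.3 ± 2.56 CPM, SD, n = 3 each; edgeR adjusted p = 0.0207), and the normalised values that accompany the study carry these same columns under the opposite group names. The groups did not overlap for PTCH1, whose log2 fold change was -0.81 and ran from -0.91 to -0.67 when 1 library was left out. Its adjusted p was then 0.0799 and 0.0921 without H295R replicates 2 and 3 and 0.0618 without H295R-PM-Ptc+ replicate 2, and with all libraries 1.7e-06 under the replicate block and 9.6e-05 by DESeq2. The counts alone cannot tell which names are right. By surface staining and Western blot the study reports more Ptch1 protein in H295R-PM-Ptc+ cells, while PTCH1 RNA is lower under that label here. Groups are called here by the labels of the deposited table, and a positive log2 fold change means a higher value under the label H295R-PM-Ptc+. Every direction given here turns if the names are exchanged.

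Wnt proteins are secreted lipid-modified ligands that bind a Frizzled receptor on the receiving cell. Together with the co-receptor LRP5 or LRP6, a Frizzled bound by a canonical Wnt keeps beta-catenin from being destroyed, while ligands such as WNT5A and WNT11 are best known for signalling without beta-catenin. SFRP proteins and WIF1 bind the ligand in the extracellular space, and DKK1, DKK2 and DKK4 bind LRP5 and LRP6. In the adrenal cortex the pathway maintains progenitor cells and the outer zone, WNT4 is one of its best known ligands there, and H295R cells are known to carry an activating mutation of the beta-catenin gene CTNNB1.

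Of the 40 genes, 26 had enough counts to be tested, 10 held counts too low to be tested and 4 held no count in any library. Among those tested, 2 inhibitor genes were higher in libraries labelled H295R-PM-Ptc+: DKK2 5.18-fold and SFRP4 3.70-fold. A single gene was lower, the co-receptor gene LRP5, by 1.49-fold. The other 23 did not pass the test, and among them were all 8 tested ligands and all 10 Frizzled receptors. With the replicate number as a block in the same test, 4 of the 23 passed as well: FZD9 and LRP6 higher, FZD1 and WNT5A lower, which made 7 of the 26 genes beside 22.5% of all tested genes. The 3 calls are to be read against the 3.73% of all 16710 tested genes that passed the same test (edgeR's quasi-likelihood F-test, two-sided, Benjamini-Hochberg adjusted p under 0.05), with 2.42% of all tested genes called higher and 1.32% lower. The median log2 fold change of the 26 genes was 0.000238, beside 0.000939 over all tested genes.

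**Figure D1:**
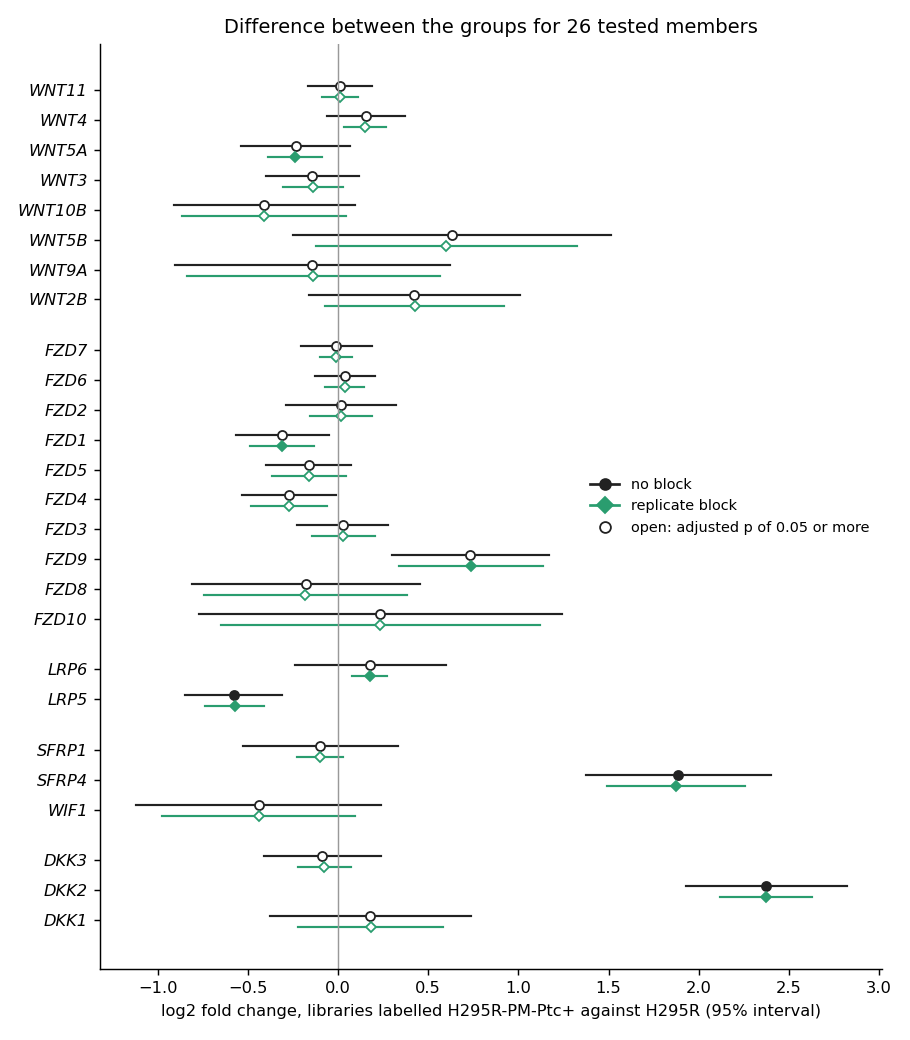
Log2 fold change of each of the 26 tested genes, libraries labelled H295R-PM-Ptc+ against H295R, from edgeR's fit without (black circles) and with the replicate number as a block (green diamonds) on the horizontal axis, with 95% confidence intervals (bars), grouped by role; filled symbols have an adjusted p under 0.05. Without the block, DKK2 at 2.37 and SFRP4 at 1.89 lie far to the right of the other genes, which lie between -0.58 for LRP5 and 0.73 for FZD9.

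The levels of these genes span a wide range, given here as RPKM, which is the count scaled to library size (CPM, as in the count tests) divided by the summed exon length in kilobases, so that genes of different length can be compared. The receptor gene FZD7 was the highest of all with a mean of 41.6 RPKM over the 6 libraries. Next came the ligand genes WNT11 (31.8 RPKM) and WNT4 (22.9 RPKM) and the receptor gene FZD6 (21.4 RPKM). FZD7 lay above WNT11 and WNT11 above WNT4 in all 6 libraries with no overlap of their ranges, while WNT4 and FZD6 overlapped and each was higher in 3 libraries. Below a gap after FZD6 followed SFRP1 (12.3 RPKM), LRP6 (11.2 RPKM), DKK3 (8.21 RPKM), LRP5 (7.98 RPKM) and FZD2 (6.85 RPKM), whose neighbours in this order all overlapped. The next gap lay between FZD2 and WNT5A (2.93 RPKM), and from WNT5A down to FZD10 (0.104 RPKM) every pair of neighbours overlapped. DKK2 and SFRP4 sat in that lower stretch, with means of 1.90 and 1.75 RPKM. By group mean, DKK2 stood at place 20 of the 40 genes in libraries labelled H295R and at place 10 in the others, SFRP4 at places 17 and 11, and LRP5 at places 7 and 9.

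**Figure D2:**
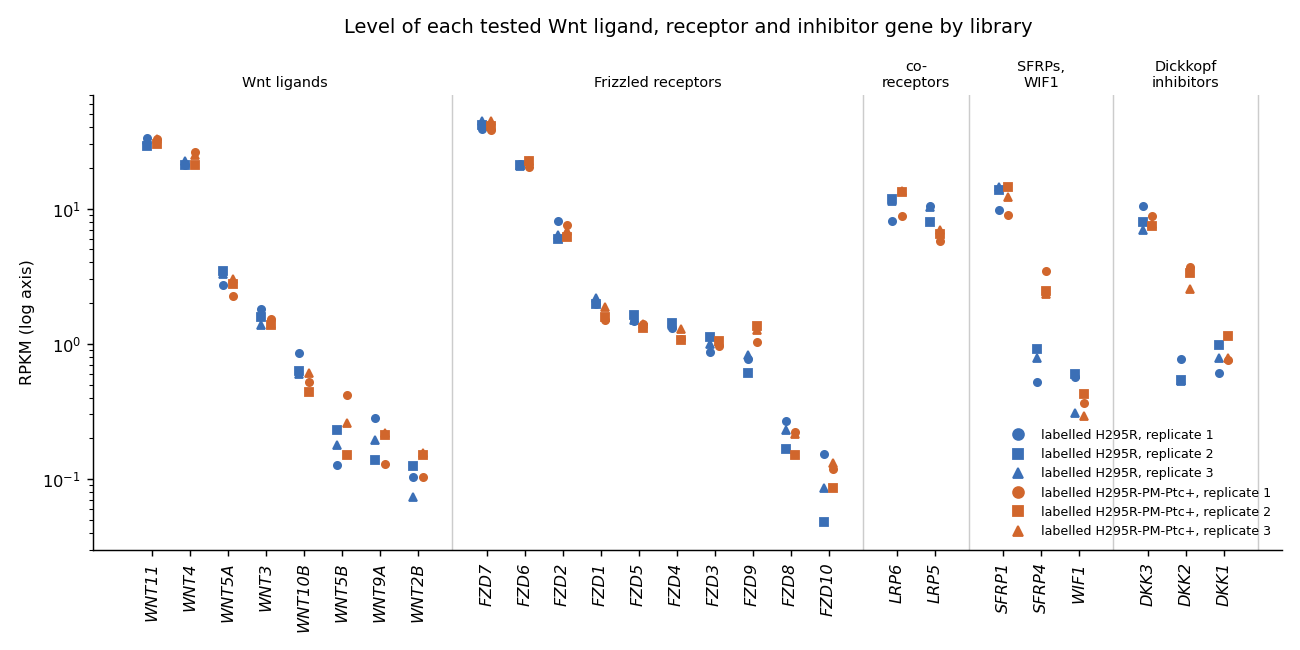
RPKM of the 26 tested genes in each of the 6 libraries (vertical log axis), by role and in order of mean level within a role; blue symbols are libraries labelled H295R, orange those labelled H295R-PM-Ptc+, and the shape is the replicate number. FZD7, WNT11, WNT4 and FZD6 form the top, and the orange symbols of DKK2 and SFRP4 sit well above the blue ones.

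Among the ligands, 2 genes made up most of the RNA. WNT11 and WNT4 together held between 89.0% and 91.7% of the summed RPKM of the 19 ligand genes in each library, and WNT5A and WNT3 brought this to between 97.3% and 97.9%. WNT11 was listed at 80.6, 70.4 and 77.0 CPM in libraries labelled H295R and at 78.6, 72.8 and 78.3 CPM in those labelled H295R-PM-Ptc+ (replicates 1, 2 and 3). The groups overlapped almost entirely, and the log2 fold change was 0.01 with a 95% interval from -0.17 to 0.19. WNT4 averaged 98.1 ± 4.13 CPM and 109 ± 12.5 CPM (SD, n = 3 each), with a log2 fold change of 0.15 (interval -0.06 to 0.37) and an adjusted p of 0.468.

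WNT5A, a ligand known mainly for beta-catenin-independent signalling and located at chr3:55465715-55489945, was lower in each same-numbered pair of libraries. Its values were 19.2, 24.5 and 23.3 CPM in libraries labelled H295R and 15.9, 19.6 and 21.4 CPM in the others. The groups overlapped, since replicate 1 was the lowest of both, and the log2 fold change of -0.24 ± 0.13 (SE) had an adjusted p of 0.421, against 0.0244 with the replicate block.

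WNT3, WNT10B, WNT5B, WNT9A and WNT2B were each at a mean of 1.52 RPKM or less, and none of the 5 passed the test. Their log2 fold changes ran from -0.41 for WNT10B to 0.63 for WNT5B. Intervals of such low genes were wide, and that of WNT5B reached from -0.25 to 1.51.

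The remaining 11 ligand genes were at or near the limit of detection. WNT1, WNT7A and WNT9B held no count in any library. A floor of 3 counts corresponds to between 0.117 and 0.130 CPM at these depths, which covers counting error only. WNT6 and WNT16 reached at most 7 and 8 counts in a library, WNT8B at most 4, WNT7B, WNT8A and WNT2 at most 3, and WNT3A and WNT10A at most 1. No difference between the groups was detectable for these genes at this depth.

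All 10 Frizzled genes were detected, and FZD7 and FZD6 together held between 80.2% and 83.3% of their summed RPKM in each library. FZD7 was at 150, 162 and 172 CPM in libraries labelled H295R and at 149, 159 and 172 CPM in those labelled H295R-PM-Ptc+. The groups lay on top of each other, and the log2 fold change of -0.01 had an interval from -0.21 to 0.19. FZD6 averaged 85.8 ± 1.95 and 88.1 ± 4.99 CPM (SD, n = 3 each), with an interval of its log2 fold change from -0.13 to 0.21.

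The receptor gene FZD9, at chr7:73433783-73436120, had 43, 36 and 48 counts in libraries labelled H295R and 62, 79 and 69 in the others. All 3 libraries labelled H295R-PM-Ptc+ lay above all 3 labelled H295R, at 2.86 ± 0.390 against 1.72 ± 0.271 CPM (SD, n = 3 each). Its log2 fold change of 0.73 ± 0.19 (SE) did not pass the test (adjusted p = 0.0783), and with the replicate block the adjusted p was 0.0103. FZD1, at chr7:91264364-91271326, was at 13.8, 13.7 and 15.2 CPM against 10.4, 11.1 and 13.0 CPM, so that the groups did not overlap in the opposite direction. For FZD1 the log2 fold change was -0.31 ± 0.11 (SE), and the adjusted p was 0.200 without and 0.0138 with the replicate block.

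Without overlap between the groups were also FZD4 (10.2 ± 0.403 against 8.44 ± 0.921 CPM, SD) and FZD5 (10.3 ± 0.584 against 9.19 ± 0.401 CPM), both at lower values in libraries labelled H295R-PM-Ptc+ and neither past the test (adjusted p = 0.271 and 0.484). In all, the groups did not overlap for 7 of the 26 genes, 3 higher and 4 lower, while they did not overlap for 23.5% of all tested genes. FZD4 shares 1399 exon bases with PRSS23 on the other strand, and the counting was set to use strand. The remaining Frizzled genes, FZD2, FZD3, FZD8 and FZD10, had log2 fold changes from -0.18 to 0.23, with none past the test.

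LRP5 and LRP6, the co-receptors that a Frizzled needs to signal through beta-catenin, gave 1 call between them, for LRP5. LRP5, at chr11:68312609-68449275, had 1544, 1242 and 1563 counts in libraries labelled H295R and 910, 989 and 993 counts in those labelled H295R-PM-Ptc+. The lowest library of the first group lay above the highest of the second, at 48.9 against 42.9 CPM. Group means were 58.9 ± 8.70 and 39.4 ± 3.66 CPM (SD, n = 3 each), which gave a log2 fold change of -0.58 ± 0.12 (SE) with an adjusted p of 0.0348. The call was lost in 4 of the 6 fits that left out a library and kept in 2: the adjusted p was 0.0411 and 0.0152 without H295R replicates 1 and 2, 0.132 without H295R replicate 3, and 0.0856, 0.120 and 0.0758 without H295R-PM-Ptc+ replicates 1, 2 and 3. The log2 fold change stayed between -0.70 and -0.51 in all 6. In the 4 fits that lost the call, 1.28% to 2.53% of all tested genes passed. The share was 4.75% and 1.63% in the other 2, and 3.73% with all libraries.

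LRP6, at chr12:12116025-12267012, was at 84.0, 123 and 118 CPM in libraries labelled H295R and at 91.5, 138 and 139 CPM in the others. Replicate 1 was the lowest of both groups and the groups overlapped, although each library labelled H295R-PM-Ptc+ lay above the one of the same number. The log2 fold change was 0.18 ± 0.19 (SE; adjusted p = 0.705), and with the replicate block 0.17 ± 0.05 (SE; adjusted p = 0.0111). As a ratio of RPKM, LRP6 to LRP5 was 0.775, 1.50 and 1.12 in libraries labelled H295R and 1.53, 2.07 and 1.93 in the others. The ratio was higher in every library labelled H295R-PM-Ptc+ than in any labelled H295R, and LRP5 was the more abundant of the pair only in H295R replicate 1.

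**Figure D3:**
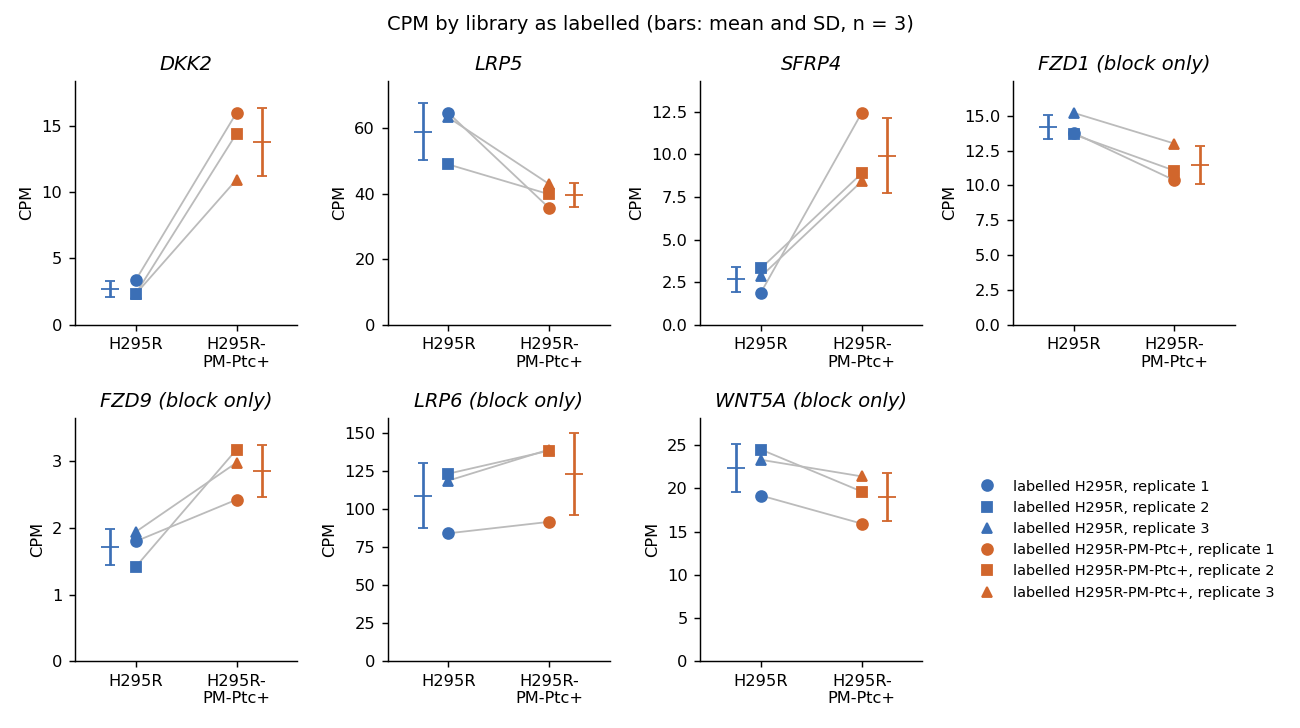
CPM in each library of the 7 genes with an adjusted p under 0.05 in edgeR's test without or with the replicate block, 1 panel a gene with a vertical axis from 0; lines join libraries of the same replicate number. All 3 lines rise for DKK2, SFRP4, FZD9 and LRP6 and all 3 fall for LRP5, FZD1 and WNT5A, and the groups overlap for LRP6 and WNT5A.

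The inhibitors that bind the ligand were led by SFRP1 in every library. SFRP1 was at 46.7, 65.9 and 69.1 CPM in libraries labelled H295R and at 42.5, 69.1 and 58.4 CPM in those labelled H295R-PM-Ptc+. Replicate 1 was the lowest of both groups, the groups overlapped, and the log2 fold change of -0.10 had an interval from -0.53 to 0.33. WIF1 was low at 0.425 RPKM and did not pass the test (log2 fold change -0.44, interval -1.12 to 0.24). SFRP2 reached at most 1 count in a library and SFRP5 held none.

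SFRP4, a secreted protein with a Frizzled-like domain that binds Wnt, was the one gene of these 5 that passed the test. It had 45, 84 and 70 counts in libraries labelled H295R and 318, 221 and 195 in those labelled H295R-PM-Ptc+, so that the groups were far apart. The means were 2.67 ± 0.725 and 9.92 ± 2.20 CPM (SD, n = 3 each), which gave a log2 fold change of 1.89 ± 0.23 (SE) with an adjusted p of 0.00252. The share of SFRP4 in the summed RPKM of the 5 genes was 5.26 ± 0.618% in the first group and 19.0 ± 7.07% in the second, where replicate 1 stood highest at 27.1%. The study placed SFRP4 in a gene group that it selected on these libraries, so its presence there is not independent evidence. SFRP4 spans chr7:37905932-38025695 on the minus strand in the authors' annotation and runs across EPDR1 on the other strand, with which it shares 0 exon bases. For EPDR1 itself the log2 fold change was 0.24 (adjusted p = 0.201).

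Among the Dickkopf genes, DKK3 was the highest in all 6 libraries. DKK3, a divergent member that is not known as an LRP5 and LRP6 antagonist of the DKK1 kind, was at 53.1, 40.1 and 35.2 CPM in libraries labelled H295R and at 44.4, 37.4 and 39.1 CPM in the others. Replicate 1 was the highest of both groups, and the log2 fold change of -0.09 had an interval from -0.41 to 0.24. DKK1, the best known antagonist of LRP5 and LRP6 and a target of beta-catenin, averaged 1.75 ± 0.413 and 1.98 ± 0.479 CPM (SD, n = 3 each), with a log2 fold change of 0.18 and an interval from -0.38 to 0.73. DKK4 reached at most 1 count in a library.

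DKK2, which binds LRP5 and LRP6, had the largest difference of the 26 tested genes and the smallest adjusted p. It had 80, 59 and 57 counts in libraries labelled H295R and 408, 358 and 253 counts in those labelled H295R-PM-Ptc+. No library of either group came near the other, with 3.35 CPM as the highest of the first and 10.9 CPM as the lowest of the second. The means were 2.66 ± 0.597 and 13.8 ± 2.58 CPM (SD, n = 3 each), which gave a log2 fold change of 2.37 ± 0.20 (SE) with an adjusted p of 0.000510. When each library was left out in turn the log2 fold change of DKK2 ran from 2.25 to 2.57 and its adjusted p was at most 0.00544, and for SFRP4 from 1.68 to 2.07 with an adjusted p of at most 0.0180. The share of DKK2 in the summed RPKM of the 4 Dickkopf genes was 6.21 ± 0.476% in the first group and 26.3 ± 2.90% in the second, while that of DKK1 was 8.32 ± 2.81% and 7.50 ± 2.00%. DKK2 lies at chr4:106921802-107283806 on the minus strand and shares no exon base with another gene of the annotation.

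**Figure D4:**
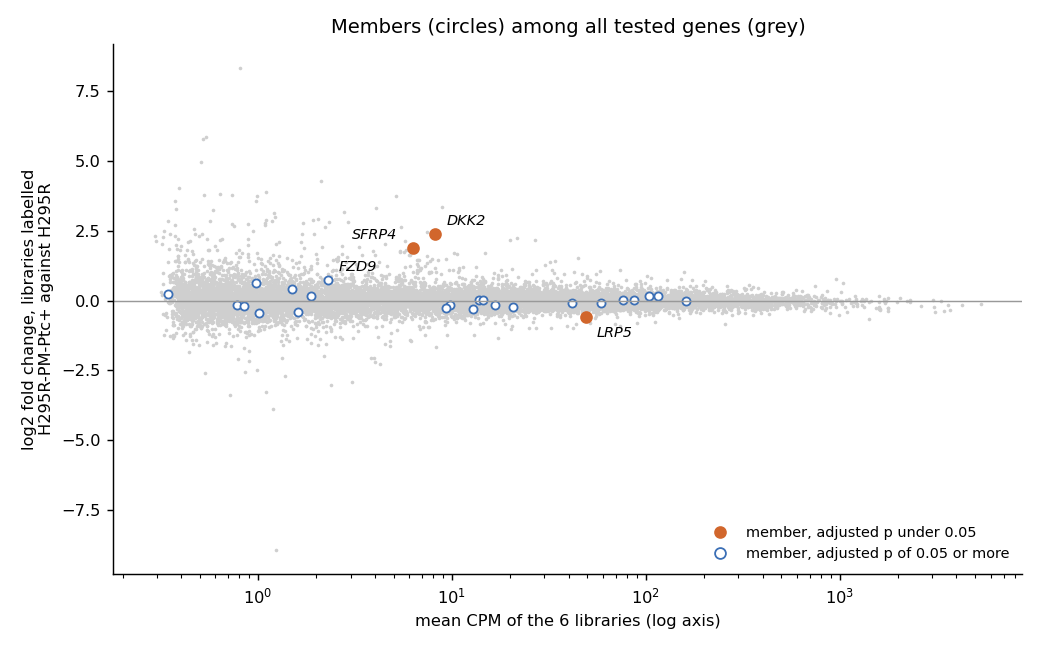
Log2 fold change, libraries labelled H295R-PM-Ptc+ against H295R (vertical axis), and mean CPM of the 6 libraries (horizontal log axis) of all 16710 tested genes (grey) and of the 26 genes described here (circles; filled where the adjusted p is under 0.05). DKK2 and SFRP4 lie above the bulk of genes of like abundance and LRP5 lies at its lower edge.

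The tested genes next to the 3 called genes on the chromosome did not pass the test. Around DKK2, the 5 tested genes on each side had a median log2 fold change of -0.10, with 2 above 0 and 8 below. Around SFRP4 the median was -0.0017, with 5 on either side of 0, and around LRP5 it was -0.06, with 2 above and 8 below. The lowest value of these was -0.72 near LRP5 and the highest 0.24 near SFRP4.

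Promoter sequence could be set beside these genes for 27 of the 40, which have 30 promoters in the RefSeq table (GRCh38.p14). The 250 bases before the start were searched on both strands for 2 short motifs, the TCF/LEF core CTTTGA through which beta-catenin acts and the GLI core CCACCCA of the Hedgehog pathway, which do not overlap. Of all 35116 promoters of that length, 11.2% hold the first and 8.17% the second. Of the 30 promoters here, 1 holds the TCF/LEF core, that of DKK1, and 0 hold the GLI core. The promoters of SFRP4 and LRP5 are printed as those of called genes with an entry, and that of DKK1 for its matches, in lower case with the letters of a match in capitals; DKK2 has no entry. They lie at chr7:37916818-37917067 (minus strand), chr11:68312341-68312590 (plus) and chr10:52314031-52314280 (plus), and each reads 5′ to 3′ along its gene. For SFRP4 the window lies inside the span of the counted gene, whose start in the authors' annotation (38025695) is not the RefSeq start.
SFRP4: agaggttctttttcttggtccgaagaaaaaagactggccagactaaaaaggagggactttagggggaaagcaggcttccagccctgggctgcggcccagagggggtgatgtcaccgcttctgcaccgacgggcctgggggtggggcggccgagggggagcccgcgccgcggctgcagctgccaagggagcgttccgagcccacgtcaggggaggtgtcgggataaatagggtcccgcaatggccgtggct
LRP5: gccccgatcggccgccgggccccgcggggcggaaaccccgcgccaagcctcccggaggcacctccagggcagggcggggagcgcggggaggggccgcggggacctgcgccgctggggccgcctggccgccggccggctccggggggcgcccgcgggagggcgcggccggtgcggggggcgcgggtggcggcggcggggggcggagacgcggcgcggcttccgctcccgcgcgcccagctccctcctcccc
DKK1: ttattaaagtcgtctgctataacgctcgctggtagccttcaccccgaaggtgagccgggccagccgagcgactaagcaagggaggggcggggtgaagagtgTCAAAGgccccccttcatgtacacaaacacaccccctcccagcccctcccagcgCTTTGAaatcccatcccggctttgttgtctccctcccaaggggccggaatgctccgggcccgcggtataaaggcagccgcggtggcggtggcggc
The window of LRP5 is 87.2% G and C with 43 CpG, that of SFRP4 64.4% with 17 CpG and that of DKK1 62.8% with 18 CpG, beside a median of 58.0% G and C over all promoters. DKK1 has both matches, one on each strand, and its RNA level did not pass the test. A match is a description of the letters and not a site.

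Replicate 1 of both groups stood apart from replicates 2 and 3, and several genes of the set moved with it. In a fit with the group as a term, chosen after seeing the data, 7 of the 26 genes differed between replicate 1 and the other 2 replicates, beside 26.3% of all tested genes. LRP6 and SFRP1 were lower in replicate 1, each with a log2 difference of -0.56, followed by WNT5A (-0.34) and FZD7 (-0.15). Higher in replicate 1 were DKK2 (0.39), DKK3 (0.36) and FZD2 (0.30). With replicate 1 of both groups left out, DKK2, SFRP4, LRP5, FZD9 and LRP6 had an adjusted p under 0.05, which is 5 of the 25 genes tested there beside 12.0% of all genes in that fit. What sets replicate 1 apart was not tested.

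Cell type markers were set beside these values. All 10 adrenocortical markers were tested, among them NR5A1 and STAR, with a summed level of 972 to 1248 CPM in libraries labelled H295R and 1048 to 1332 CPM in the others, and 1 of the 10, CYP21A2, was higher (adjusted p = 0.00670). Of 8 fibroblast markers 3 were tested, their list summed to 44.7 to 49.9 against 57.1 to 61.9 CPM, and THY1 was higher at 1.69 against 0.690 CPM (adjusted p = 0.0175) while LUM held no count. Most of that sum was FAP, at 37.3 against 47.0 CPM (adjusted p = 0.0755), and the low PDGFRA and PDGFRB went the other way, at 0.419 against 0.233 and 0.0804 against 0.0408 CPM. Endothelial markers (5 genes, none tested) summed to 0.197 to 0.335 against 0.509 to 0.648 CPM, where TEK (0.107 against 0.384 CPM) and CDH5 (0.0274 against 0.106 CPM) were higher in mean and PECAM1, VWF and KDR, with at most 3 counts in a library, were lower. Immune markers (6 genes, 2 tested, PTPRC and CD68 without a count) summed to 0.850 to 1.34 against 1.86 to 2.03 CPM, and epithelial markers (5 genes, 1 tested, KRT5 and KRT19 without a count) to 1.65 to 2.06 against 3.15 to 4.23 CPM, with EPCAM higher (adjusted p = 0.0382). Chromaffin markers (5 genes, 2 tested, DBH and PNMT without a count) summed to 65.2 to 76.7 against 51.5 to 61.2 CPM, nearly all of it CHGB at 71.4 against 54.3 CPM (adjusted p = 0.0579), while CHGA was at 0.783 against 1.16 CPM (adjusted p = 0.305). Under the replicate block, of the markers reported here, STAR (adjusted p = 3.9e-06) and FAP (0.00043) passed as higher and CYP11A1 (0.00100) and CHGB (7.4e-05) as lower, in addition to CYP21A2, THY1 and EPCAM. Without 1 library THY1 lost its call where replicate 2 or 3 of either group was left out (adjusted p up to 0.0907), and EPCAM in each of the 6 fits but that without H295R replicate 1 (up to 0.136). Those 6 fits called 1.28% to 4.75% of all tested genes. The part of these differences in the values of DKK2, SFRP4 and LRP5 was not tested, and in bulk RNA more cells of a kind and more RNA per cell cannot be told apart.

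Beyond the extracellular genes and their receptors, 76 other genes of the Wnt pathway were listed by function, and 62 of them were tested. The test called 6 of them, 4 upwards and 2 downwards under the label H295R-PM-Ptc+, beside 3.73% of all tested genes, and the median log2 fold change of the 62 was 0.07. LGR5, a receptor for R-spondins, which amplify Wnt signals, rose from 31.8 ± 3.49 to 61.6 ± 5.77 CPM (log2 fold change 0.95, adjusted p = 0.00155). The Dishevelled regulator DACT1 (log2 fold change 0.53), the nuclear partner of beta-catenin LEF1 (0.44) and the kinase GSK3A of the destruction complex (0.35) were also higher, with adjusted p-values of 0.0171, 0.00990 and 0.0389. GPC4, a glypican that can bind Wnt at the cell surface, fell from 56.3 ± 2.11 to 31.4 ± 0.886 CPM (log2 fold change -0.84, adjusted p = 0.000576). CXXC4, a Dishevelled-binding inhibitor, was low at 1.33 ± 0.284 against 0.575 ± 0.138 CPM (log2 fold change -1.22, adjusted p = 0.0486, and 0.0656 by DESeq2).

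LGR5 and GPC4 held their calls in all 6 fits that left out a library, with adjusted p-values of at most 0.0163 and 0.00663. In these fits 1.28% to 4.75% of all tested genes passed, beside 3.73% with all libraries. LEF1 lost its call without replicate 3 of H295R (0.0581) or of H295R-PM-Ptc+ (0.0665). DACT1 lost it without H295R replicate 2 (0.0549) and without H295R-PM-Ptc+ replicate 2 (0.0810) or 3 (0.0643). GSK3A and CXXC4 each lost it in 5 of the 6 fits, the exception being the fit without H295R replicate 1, with adjusted p-values from 0.0957 to 0.156 and from 0.0848 to 0.180.

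With the replicate block, 25 of the 62 genes passed, 21 upwards and 4 downwards, again beside 22.5% of all tested genes. All 5 tested genes of the R-spondin system were among the higher ones: RSPO4, LGR4, LGR5, RNF43 and ZNRF3, while RSPO1, RSPO2 and RSPO3 held no count. ZNRF3, a ligase that removes Frizzled from the surface and the highest of that group, was at 122 ± 13.8 and 157 ± 16.2 CPM, with a log2 fold change of 0.37 and an adjusted p of 0.113 without the block and 1.84e-05 with it. Of the most abundant genes of the other groups, the ligand carrier WLS (0.14), the formin DAAM2 (0.36) and DVL3 (0.12) had log2 fold changes above 0. CTNNB1 (-0.09), the Frizzled relative SMO (-0.17) and the surface antagonist APCDD1 (-0.08) lay below 0. None had an adjusted p under 0.05 in edgeR's test without the block. With the block WLS (0.0215) and DAAM2 (3.11e-05) passed, and DAAM2 also passed by DESeq2 without it (adjusted p = 0.0278).

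**Figure D5:**
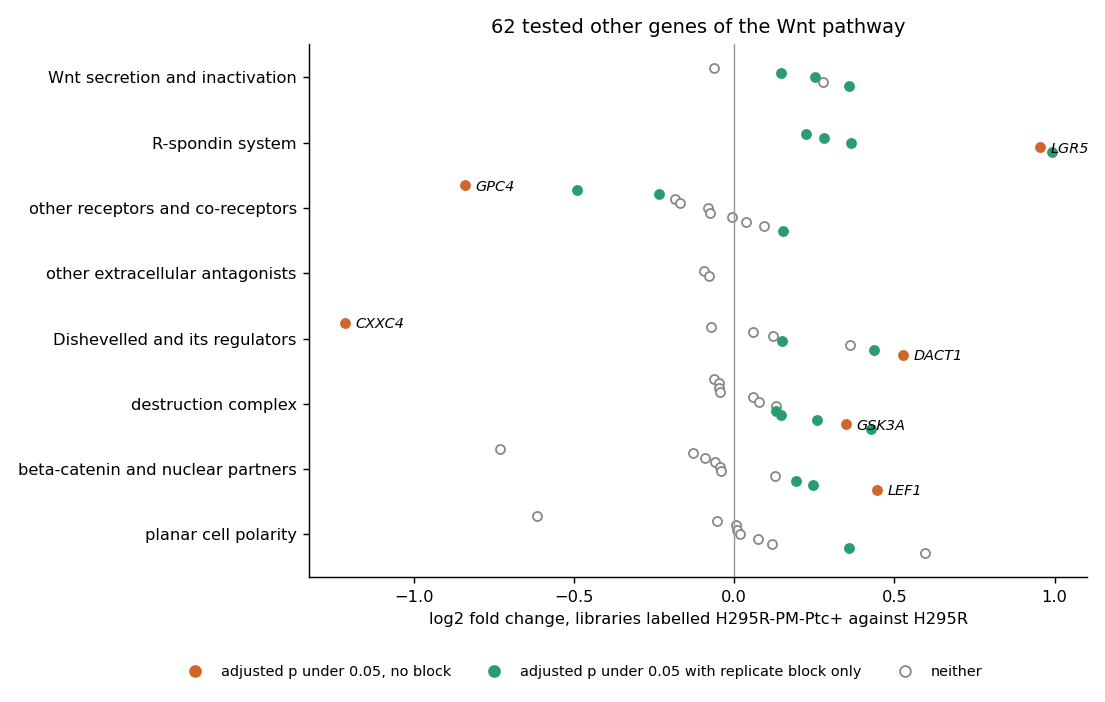
Log2 fold change, libraries labelled H295R-PM-Ptc+ against H295R (horizontal axis), of the 62 tested other genes of the Wnt pathway, 1 point a gene, by functional group; filled orange points have an adjusted p under 0.05 without the replicate block, green points only with it. The 5 R-spondin system points all lie right of 0 and are all filled, and CXXC4 and GPC4 lie farthest to the left.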

How the data were processed

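RNA of 6 libraries, 3 labelled H295R and 3 labelled H295R-PM-Ptc+, was sequenced in paired reads. Alignment by the authors was to hg38 (STAR 2.4.0a). Fragments were assigned to gene names of an Ensembl GRCh38 annotation by featureCounts, with strand used and a read that mapped to several places counted where its primary alignment lay, and the raw counts were deposited without normalization. The processing notes of the submitters name Subread 1.5.0-p3, and the study's methods name a stranded mRNA kit where the labels name a total RNA kit. Totals lay between 23264403 and 25813247 counts per library. The 1 row without a gene name held 0 counts and was left out.

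Genes were filtered with filterByExpr, scaled by TMM and compared between the groups by the two-sided quasi-likelihood F-test of edgeR 4.0.16 (R 4.3.3), without further terms. P-values of the 16710 genes that passed the filter were adjusted together by the Benjamini-Hochberg method. Standard errors and 95% intervals come from the same fit. CPM uses TMM-scaled totals, and RPKM divides it by the exon length in the deposited table. The test was tested on simulated data. Alternatives were DESeq2 1.42.0, scaling by relative log expression, no filter, at least 10 counts in every library, the replicate number as a block, and leaving out each library or replicate 1 of both groups; the fit of replicate 1 against replicates 2 and 3 was added after seeing the data. Replicate numbers were taken to pair the libraries, from codes shared by both groups in the labels. Deviations from the group means on the log2 CPM scale correlated across genes at 0.497, 0.307 and 0.228 for libraries with the same number (1, 2 and 3). For different numbers the range was -0.352 to 0.150. Deviations cancel within a group, so a shared shift of replicate 1 alone lowers the pairs that join it to another number. Between replicates 2 and 3 different numbers gave 0.150 and 0.109, so their pairing is less clear. The genes and lists were chosen with earlier results of these data known. Named with values in every library are genes with an adjusted p under 0.05 without or with the block and the gene with the highest mean RPKM of each role; of the other pathway genes, those called and the highest of each group. Promoters and their coordinates come from RefSeq (GRCh38.p14), and gene coordinates from the deposited table. Python 3.11.15, pandas 2.3.3 and matplotlib 3.10.9 served for tables and plots. The separate result of 1 cell type marker is not reported here.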

Additional observations from a re-analysis of the deposited data

How the results depend on the processing

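The 3 called genes stayed 3 with scaling by relative log expression (beside 3.7% of all genes in that fit) and with DESeq2 (beside 4.56%). They also stayed 3, of 25 tested, with at least 10 counts in every library (beside 3.09%). Without the filter on low counts they were 4 of 36 (beside 3.59%), where FZD9 joined (adjusted p = 0.0384). Leaving out each library in turn gave 2 to 3 of 26, with LRP5 the one lost, beside 1.28% to 4.75% of all genes. With the replicate block they were 7, joined by FZD9, FZD1, LRP6 and WNT5A, and without replicate 1 of both groups 5 (beside 12.0% of all genes in that fit), where FZD9 (0.0251) and LRP6 (0.0334) joined; the cause was not tested. The block changed no other call among the 26 genes and turned no direction. Of the 62 other pathway genes, 6 called became 25 with the replicate block. They became 11 of 71 without the filter (3.59% of all genes) and 15 of 62 without replicate 1 of both groups. By DESeq2 7 passed (beside 4.56% of all genes), with DAAM2 (adjusted p = 0.0278) and TSPAN12 (0.0143) but without CXXC4 (0.0656). Leaving out each library gave 2 to 10, the lowest without H295R-PM-Ptc+ replicate 3 (beside 1.5% of all genes) and the highest without H295R replicate 1 (beside 4.75%).

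Of 310 log2 fold changes under the alternatives, 280 kept their direction and side of the threshold, 7 of 4 genes passed it, 4 of LRP5 missed it and 19 of 10 genes changed sign, none with an adjusted p under 0.05. Over the fits that left out 1 library, the log2 fold change of these genes ran from -0.042 to 0.053 for WNT11, -0.36 to 0.16 for WNT9A, -0.076 to 0.032 for FZD7, -0.074 to 0.15 for FZD2, -0.062 to 0.12 for FZD3, -0.091 to 0.73 for FZD10, -0.27 to 0.067 for SFRP1, -0.22 to 0.095 for DKK3 and -0.040 to 0.36 for DKK1. Without replicate 1 of both groups it was -0.0024 for WNT5B, 0.37 for WNT9A, -0.025 for FZD3 and 0.020 for DKK3. Depth limits the 10 genes with under 10 counts in every library, whose adjusted p was at least 0.681 when tested without the filter and whose unadjusted p was at least 0.397 in DESeq2, and 3 libraries a group limit the rest: of the 23 genes not called, 18 had a 95% interval within a log2 fold change of 1 either way.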
